A study of Mus musculus with 14 samples.

Results

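Restriction factors are host proteins that act on retroelements after transcription, on their RNA, their proteins or the DNA copied from them. Retrotransposons such as LINE1 (L1) and the endogenous retroviruses IAP and MMERVK10C move by copying their RNA into DNA. In male germ cells their promoters are methylated by DNMT3C and its partners, and the restriction factors form a second layer that works where transcripts have already been made. The genes described here were 9 such factors: Apobec3, Adar, Samhd1, Trex1, Rnaseh2a, Mov10, Zc3hav1, Tex19.1 and Tex19.2. They were chosen by gene symbol, with earlier results of these data known, and all 9 were found among the 32667 genes counted in spermatogonia and the 36888 genes counted in spermatocytes, of which 31111 were in both tables.

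The libraries came from mouse germ cells sorted before meiosis (spermatogonia, Spg) and in meiosis (spermatocytes, Spc), of Dnmt3CKO/KO animals (KO) and wild-type littermates (WT), on a C57Bl6/J background. Spermatogonia were taken from mice at postnatal day 14 as cells positive for EpCAM and negative for β2-microglobulin, with 3 KO and 3 WT libraries. Spermatocytes were taken from mice older than 20 days by their DNA content after Hoechst staining, with 4 KO and 4 WT libraries. Stage, age and sorting method go together in this design and cannot be told apart. The study reports that KO germ cells arrest at pachytene and that its WT spermatocyte sort also held later cells. In spermatocytes, genotype and the mix of meiotic stages therefore go together as well. The question of the study was how retrotransposons are transcribed in each stage once their promoters stay unmethylated. The restriction factors were read out of the same libraries to ask whether their own RNA level differed with genotype or stage.

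Total counts were 40555726 to 53323651 per library. The Dnmt3c gene itself had 53 to 116 counts per library in spermatogonia and 11 to 57 in spermatocytes and was not lower in KO (log2 fold changes of 0.10, SE 0.38, and 0.77, SE 0.42, edgeR adjusted p of 0.9996 and 0.124), so that its RNA level did not check the labels. The share of counts from L1 elements did separate the genotypes, with 0.756% to 1.34% in KO against 0.298% to 0.496% in WT spermatogonia and 2.15% to 4.84% in KO against 0.348% to 0.581% in WT spermatocytes. Spermatocyte replicates 1 and 4 were much alike within each genotype, with a chi-square per degree of freedom of 11.6 in KO and 14.9 in WT against 129 to 286 for the other pairs. They still differed by more than sampling noise, which does not tell whether they came from different animals. They were kept as separate libraries. The study describes its sequenced groups as biological replicates, fewer for spermatocytes than the libraries labelled, while the labels do not tie single libraries to animals, so p-values measure the spread between these libraries, which for spermatocyte replicates 1 and 4 was small.

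The sorted populations were set against lists of marker genes. In WT spermatocytes 8 of 8 pachytene markers were detected, with a summed level of 8965 to 16758 CPM (counts scaled to 1000000 per library, with TMM factors, the trimmed mean of M-values, over all 14 libraries), and 8 of 8 spermatid markers summed to 83.6 to 1549 CPM. In KO spermatocytes the same lists summed to 194 to 464 and 3.49 to 13.0 CPM, while the spermatogonia list summed to 477 to 1201 CPM against 90.1 to 314 in WT and the early meiotic list overlapped between genotypes (1645 to 2645 against 1361 to 2509 CPM). Within the early meiotic list Dmc1, Prdm9, Meiob and Tex15 had higher means in KO (120, 61.4, 147 and 384 against 16.8, 6.25, 36.9 and 67.6 CPM). Spo11 had a lower one (32.6 against 138 CPM), and Sycp1, Sycp3 and Hormad1 lay closer together (683, 510 and 373 against 581, 525 and 351 CPM). Markers of somatic testis cells were also higher in KO spermatocytes, with 6 of 6 peritubular markers at 348 to 4360 CPM against 36.9 to 48.6, 6 of 6 Leydig markers at 54.1 to 322 against 13.9 to 29.96, 6 of 6 macrophage markers at 26.7 to 145 against 3.17 to 7.14, and lymphoid markers at 5.17 to 8.89 against 1.36 to 4.02 CPM. The peritubular sum in KO came mainly from Col1a1, Col1a2 and Pdgfra (means of 1066, 1476 and 379 CPM). Acta2, Myh11 and Des of the same list had means of 29.4, 16.2 and 29.4 CPM in KO against 3.40, 1.26 and 0.657 in WT. Sertoli markers (282 to 1045 against 126 to 491 CPM) and erythroid markers (1.20 to 11.9 against 1.51 to 7.59 CPM) overlapped between genotypes. The part of these lists in the results on spermatocytes was not tested, and in sorted bulk RNA fewer cells of a type and less RNA per cell cannot be told apart. In spermatogonia the pachytene list was lower in KO without overlap (114 to 144 against 215 to 1492 CPM), and each of the other 9 lists overlapped between genotypes. Peritubular markers were at 34.3 to 39.5 CPM in KO and 33.8 to 47.5 in WT, and macrophage markers at 0.822 to 1.497 and 0.467 to 2.91 CPM.

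**Figure D1:**
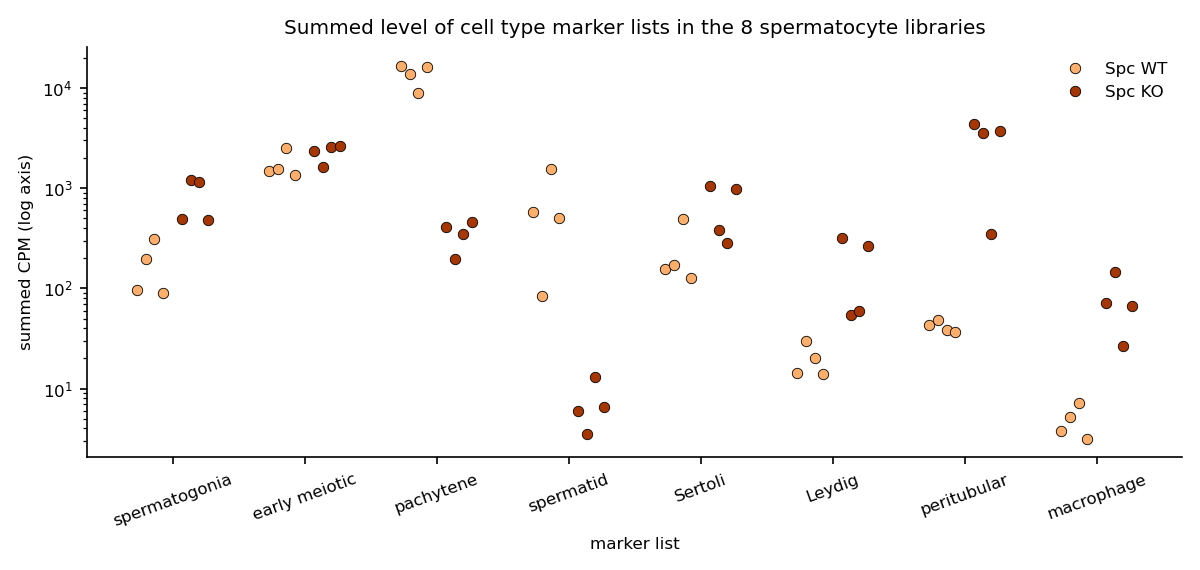
Summed CPM of marker genes (vertical log axis) for 8 cell type lists (horizontal axis) in the 4 WT (light) and 4 KO (dark) spermatocyte libraries, each point a library in the order of replicates 1 to 4. The pachytene list lies at 8965 to 16758 CPM in WT and 194 to 464 in KO, and the peritubular list at 348 to 4360 CPM in KO and 36.9 to 48.6 in WT.

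The 9 genes lie on several chromosomes (GRCm38). On chromosome 3 are Adar (89715022 to 89753446, plus strand) and Mov10 (104794836 to 104818563, minus strand). On chromosome 11, on opposite strands, are Tex19.2 (121116215 to 121118677, minus) and Tex19.1 (121146143 to 121148319, plus). The others are Samhd1 on chromosome 2 (157097533 to 157135265, minus), Zc3hav1 on chromosome 6 (38305286 to 38354603, minus), Rnaseh2a on chromosome 8 (84956610 to 84969767, minus), Trex1 on chromosome 9 (109057933 to 109059734, minus) and Apobec3 on chromosome 15 (79891659 to 79915906, plus).

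To give the sequence context of the Tex19 paralogs, of which Tex19.2 fell in KO spermatocytes while Tex19.1 did not pass the test, and of Zc3hav1, the factor with the highest rise, the 250 bases before the annotated start are shown for Tex19.1, Tex19.2 and Zc3hav1. They are RefSeq promoter windows on GRCm38.p6, written 5′ to 3′ in the direction of transcription, with CpG dinucleotides, the sites that DNA methyltransferases modify, in capitals.

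Tex19.1, chr11:121145893-121146142, plus strand: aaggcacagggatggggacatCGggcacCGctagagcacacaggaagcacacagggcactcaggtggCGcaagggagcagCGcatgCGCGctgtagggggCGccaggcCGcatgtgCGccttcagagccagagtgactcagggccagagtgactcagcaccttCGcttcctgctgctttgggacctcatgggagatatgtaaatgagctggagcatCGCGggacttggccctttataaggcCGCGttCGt
Tex19.2, chr11:121118678-121118927, minus strand: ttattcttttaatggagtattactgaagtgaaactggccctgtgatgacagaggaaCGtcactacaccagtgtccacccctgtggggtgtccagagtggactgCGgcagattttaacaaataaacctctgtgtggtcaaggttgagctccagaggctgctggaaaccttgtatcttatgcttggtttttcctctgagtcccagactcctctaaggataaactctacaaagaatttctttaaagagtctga
Zc3hav1, chr6:38354604-38354853, minus strand: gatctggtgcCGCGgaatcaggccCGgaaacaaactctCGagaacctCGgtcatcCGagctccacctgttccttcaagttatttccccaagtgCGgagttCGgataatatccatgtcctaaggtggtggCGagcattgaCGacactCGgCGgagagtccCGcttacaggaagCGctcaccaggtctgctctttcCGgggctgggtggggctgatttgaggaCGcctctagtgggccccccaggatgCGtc

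The Tex19.1 window holds 15 CpG, that of Tex19.2 holds 2 and that of Zc3hav1 holds 17, against a median of 6 over 32851 windows of the same length. Methylation at these windows was not measured in the data used here. Over all 14 windows of the 9 factors, the NRF1 motif, searched on both strands, was found in windows of Samhd1 and Tex19.1, and in 3.74% of all windows. The letters GCGGGA, a core of E2F motifs, were found in windows of Adar, Zc3hav1 and Tex19.1 and in 16.9% of all windows, and the interferon-stimulated response element in a window of Apobec3 and in 2.98% of all windows. Neither the E-box CACGTG nor the CRE motif TGACGTCA was found in a window of the 9 factors, against 6.02% and 1.55% of all windows. These are matches of letters only.

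In spermatogonia the RNA of the 9 factors did not differ between KO and WT by the test used. The log2 fold changes ran from -0.24 for Trex1 (SE 0.37) to 0.26 for Apobec3 (SE 0.56), and 0 of 9 passed the threshold of an adjusted p under 0.01 (edgeR quasi-likelihood test, two-sided, with the Benjamini-Hochberg correction across genes and TE subfamilies together). The adjusted p was 0.9996 for each factor, and 0 of 9 had an unadjusted p under 0.05, against 1509 of 20659 genes. DESeq2 called 0 of 9 as well, beside 591 of all genes (144 higher and 447 lower). In the edgeR fit the background was low, as 0.0436% of the 20659 genes tested passed (0.0387% higher and 0.00484% lower). With the replicate number as a block, 108 genes passed, 27 higher and 81 lower. The libraries of KO and WT overlapped for all 9 factors, where 12.1% of genes had groups that did not overlap.

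Tex19.1, a germ cell protein that works with the ubiquitin ligase UBR2 and lowers the level of the L1 ORF1 protein, was the most abundant factor per length in spermatogonia. It stood at 141, 120 and 178 CPM in KO replicates 1 to 3 and at 135, 105 and 125 CPM in WT (log2 fold change 0.23, SE 0.17). Its paralog Tex19.2 stood at 37.1, 31.97 and 42.8 CPM in KO and 34.3, 42.9 and 32.7 CPM in WT. For both paralogs KO and WT libraries overlapped. Within same-numbered pairs Tex19.1 was higher in KO in 3 of 3, and the difference did not pass with the replicate number as a block either. Mov10, an RNA helicase that binds L1 ribonucleoprotein particles, stood at 144, 102 and 148 CPM in KO and 178, 106 and 117 CPM in WT. Adar, which converts adenosine to inosine in double-stranded RNA, varied least between libraries relative to its mean, with 76.6, 85.5 and 77.1 CPM in KO and 76.4, 67.2 and 82.7 CPM in WT. Apobec3, a cytidine deaminase that edits reverse transcripts, varied most, with 8.36, 4.03 and 3.42 CPM in KO and 6.73, 4.44 and 1.60 CPM in WT. In both genotypes replicate 1 was highest and replicate 3 lowest for Apobec3. The summed level of Sertoli markers had the same order, with 1418, 557 and 405 CPM in KO and 1098, 575 and 299.8 CPM in WT replicates 1 to 3, and its part in the Apobec3 level was not tested.

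For the other 4 factors the libraries of KO and WT overlapped as well. Zc3hav1 stood at 28.7, 34.9 and 28.5 CPM in KO and 28.9, 23.8 and 33.6 CPM in WT spermatogonia (log2 0.06, SE 0.18). Samhd1 stood at 62.6, 45.2 and 67.2 CPM in KO and 55.2, 45.7 and 58.5 CPM in WT (log2 0.10, SE 0.18), with both genotypes lowest in replicate 2. Rnaseh2a stood at 40.1, 37.6 and 47.1 CPM in KO and 39.0, 52.0 and 35.5 CPM in WT (log2 -0.06, SE 0.20). Its highest library was a WT one, replicate 2, which also had the most pachytene markers of the spermatogonia libraries (1492 CPM). Trex1 was at 1.35, 1.43 and 1.0997 CPM in KO and 1.18, 2.13 and 1.13 CPM in WT (log2 -0.24, SE 0.37), on 62 to 107 counts per library.

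Scaled to exon length, the order of levels in WT spermatogonia was led by Tex19.1 with 65.0 ± 8.005 CPM per kb (SD, n = 3). Mov10 (23.8 ± 6.91) and Tex19.2 (17.9 ± 2.68 CPM per kb) followed, and their libraries overlapped with each other but not with their other neighbours in the order. Rnaseh2a (12.01 ± 2.47) overlapped with Adar (9.29 ± 0.960), and Samhd1 (5.81 ± 0.726) with Zc3hav1 (4.41 ± 0.753 CPM per kb). Trex1 (1.29 ± 0.492) and Apobec3 (0.450 ± 0.271 CPM per kb) were lowest. The order in KO spermatogonia was the same.

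**Figure D2:**
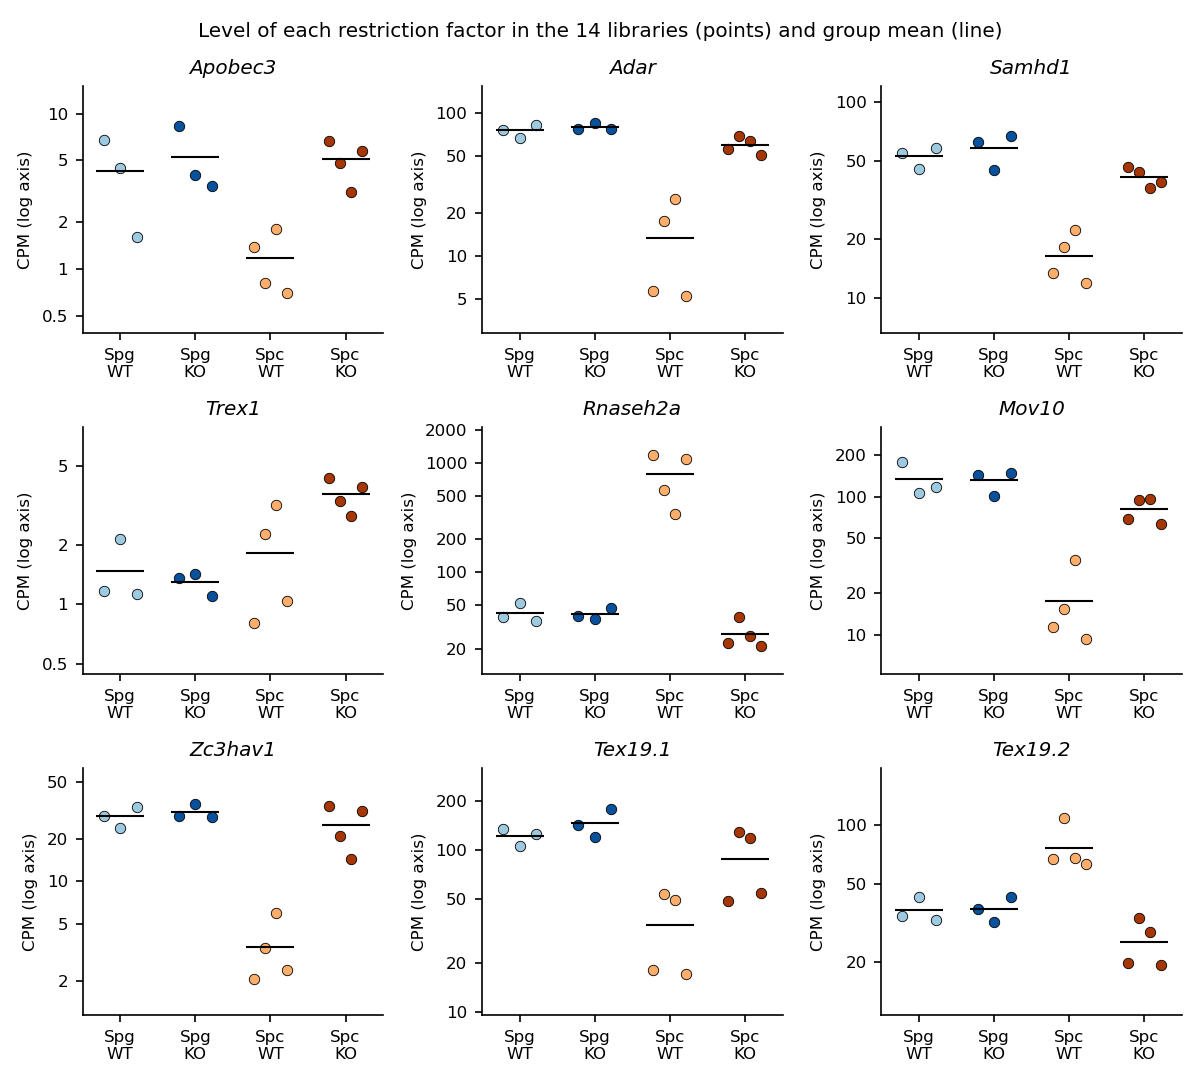
Level of each of the 9 restriction factors in CPM scaled over all 14 libraries (log axis, a scale of its own for each gene) in WT and KO spermatogonia (3 libraries each) and WT and KO spermatocytes (4 each). Points are libraries in the order of replicates and the line is the group mean. In spermatogonia KO and WT overlap for all 9 genes, and in spermatocytes they do not overlap for 7 of 9.

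In spermatocytes 5 factors were higher in KO (Zc3hav1, Mov10, Adar, Apobec3 and Samhd1) and 2 were lower (Rnaseh2a and Tex19.2), while Tex19.1 and Trex1 did not pass the test. These 7 of 9 stand beside 58.8% of the 21919 genes tested that passed in the same comparison, 28% higher and 30.7% lower. With the alike replicates 1 and 4 summed in each genotype, 5 factors were called, 3 higher and 2 lower. The genes called were then 8758 (3533 higher and 5225 lower) in place of 12885. Groups of libraries did not overlap for the same 7 of 9 factors and for 68.4% of all genes. The median log2 fold change was 1.38 over the 9 factors and 0.11 over all genes tested. When libraries were scaled by their total counts alone, the median of all genes moved to 0.79, 6 factors were called higher and 1 lower, and 8074 genes were higher and 4880 lower in place of 6145 and 6740.

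Among the factors that bind retroelement RNA, Zc3hav1, the zinc finger antiviral protein that recognises CpG-rich RNA and promotes its decay, rose most. It stood at 33.8, 20.7, 14.4 and 31.1 CPM in KO replicates 1 to 4 and at 2.07, 3.38, 5.96 and 2.40 CPM in WT. The WT values rest on 67 to 249 counts per library. Every KO library was above every WT library, and the rise was 7.39-fold (log2 fold change 2.89, SE 0.44, edgeR adjusted p = 0.000287). KO replicate 3, the lowest KO library for Zc3hav1, also had the lowest peritubular marker level of the KO libraries (348 CPM, against at most 48.6 in WT), and the part of somatic cells in this rise was not tested. Mov10 stood at 68.8, 95.3, 96.7 and 63.2 CPM in KO and 11.4, 15.3, 34.5 and 9.32 CPM in WT, a 4.70-fold rise (log2 2.23, SE 0.40, adjusted p = 0.000755). The WT library with most Mov10, replicate 3, was also the WT library with most Zc3hav1, Adar, Samhd1 and Apobec3, and had the lowest pachytene level (8965 CPM) and the highest spermatid (1549), spermatogonia (314) and Sertoli (491 CPM) levels of the WT libraries. Adar stood at 55.5, 69.5, 63.8 and 50.8 CPM in KO and 5.77, 17.7, 25.2 and 5.25 CPM in WT, a 4.58-fold rise (log2 2.19, SE 0.48, adjusted p = 0.00230). Over the KO libraries Mov10, Adar and both Tex19 paralogs were highest in replicates 2 and 3, as was the spermatogonia marker list (488, 1201, 1161 and 477 CPM in replicates 1 to 4, against 90.1 to 314 in WT), whose part was not tested. An antisense gene, Chrnb2, shares 1365 exonic bases with Adar, and the counting was set to the strand of the library.

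Among the factors that act on the reverse transcript, Apobec3 was low throughout, with 164 to 327 counts per library in KO and 20 to 75 in WT spermatocytes. Its levels were 6.61, 4.84, 3.13 and 5.76 CPM in KO and 1.39, 0.814, 1.797 and 0.696 CPM in WT, without overlap (log2 2.13, SE 0.43, adjusted p = 0.00159). Over the KO libraries Apobec3 had the same order as the Sertoli markers (1045, 386, 282 and 973 CPM in replicates 1 to 4), and as the peritubular markers (4360, 3539, 348 and 3737 CPM). Over the WT libraries the order differed from that of both lists (155, 171, 491 and 126 CPM for Sertoli markers), and the part of these cells was not tested. Samhd1, which hydrolyses the deoxynucleotides needed for reverse transcription, stood at 46.7, 43.9, 36.6 and 39.2 CPM in KO and 13.5, 18.4, 22.3 and 11.97 CPM in WT (log2 1.36, SE 0.25, adjusted p = 0.000906). With the alike replicates 1 and 4 summed to 1 library in each genotype, these 2 were no longer called (log2 1.98, adjusted p = 0.0141 for Apobec3 and log2 1.25, adjusted p = 0.0118 for Samhd1). Trex1, a DNA exonuclease that degrades DNA in the cytoplasm, stood at 4.37, 3.31, 2.78 and 3.91 CPM in KO and 0.803, 2.26, 3.16 and 1.04 CPM in WT. WT replicate 3 lay above KO replicate 3, and the log2 difference of 1.02 (SE 0.46) did not pass the test (adjusted p = 0.0703). All of the exonic bases of Trex1 lie within exons of Atrip on the same strand in GENCODE M21, and Atrip, with 630 to 1552 counts per spermatocyte library, did not pass the test either (log2 -0.22, SE 0.28, adjusted p = 0.494). Counts of Trex1 therefore cannot be told apart from reads of Atrip transcripts over the same bases.

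Rnaseh2a, the catalytic subunit of RNase H2, which cleaves the RNA of RNA-DNA hybrids, had the largest difference of the 9 factors in either direction. It stood at 22.4, 39.1, 26.2 and 21.1 CPM in KO and at 1188, 569, 343 and 1090 CPM in WT spermatocytes, that is 1035 to 2185 counts against 14314 to 38490. Its level in KO was 29.3-fold lower (log2 -4.87, SE 0.47, adjusted p = 2.01e-05). Of the other subunits of the complex, Rnaseh2b was higher in KO (25.8 to 44.1 against 4.21 to 10.8 CPM, log2 2.44, adjusted p = 0.000298), and Rnaseh2c was lower (10.3 to 19.15 against 28.0 to 49.9 CPM, log2 -1.39, adjusted p = 0.00182).

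The Rnaseh2a counts carry a limit of annotation. The gene model on the minus strand of chromosome 8 (84956610 to 84969767, GRCm38) holds that of Gm49661 (84967678 to 84969433) on the same strand, and all 339 exonic bases of Gm49661 lie within exons of Rnaseh2a, of which they make up 9.66%. Gm49661 had 5922, 2963, 1921 and 4848 counts in WT and 33, 31, 13 and 53 in KO spermatocytes (log2 -7.57, SE 0.65, adjusted p = 1.15e-05), against 16 to 183 counts in the 6 spermatogonia libraries. WT libraries ranked alike by both genes. Of the 10 annotated transcripts of Rnaseh2a, 4 begin within 327 bases of the start of the gene model and the other 6 begin 2891 bases or more downstream, and counts per gene do not show which of them carried the reads of WT spermatocytes. The counts of single TE copies add a measurement here. The 5 copies on the same strand in introns between 84966343 and 84968678, upstream of the start of 5 of the 10 transcripts, stood at 16.05 to 28.3 TPM on average in WT and 0 to 1.40 TPM in KO spermatocytes, and for each of the 5 the lowest WT library was above the highest KO library. In spermatogonia the same copies stood at 0.949 to 2.51 TPM in WT and 0 to 2.58 TPM in KO. The listed copies on the same strand in introns further downstream stood at 0 to 13.6 TPM in WT and 0 to 7.92 TPM in KO spermatocytes, among them a B3A copy (84958463 to 84958647) that overlapped between genotypes, with 4.58 TPM in WT (0.742 to 6.99) and 2.95 TPM in KO (1.63 to 5.62), and a B3 copy (84961448 to 84961629) that did not, with 4.72 TPM in WT (1.13 to 7.91) and 0.385 TPM in KO (0 to 0.954). These TPM values were not tested and are relative to all TE copies, whose total also differs between the genotypes.

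**Figure D3:**
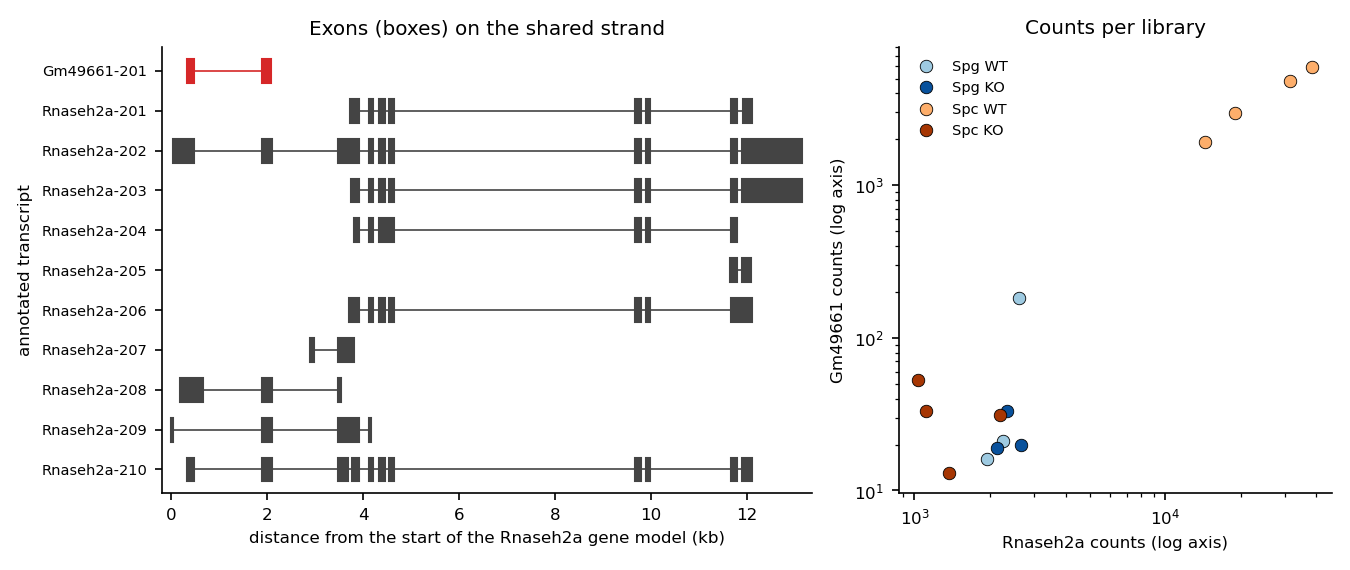
Left, exons (boxes) of the 10 annotated Rnaseh2a transcripts (grey) and of Gm49661 (red), by distance from the start of the Rnaseh2a gene model in kb. Right, Gm49661 counts against Rnaseh2a counts on log axes, a point per library: the 4 WT spermatocyte libraries lie at 14314 to 38490 Rnaseh2a and 1921 to 5922 Gm49661 counts, apart from the other 10.

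Of the Tex19 paralogs, Tex19.2 fell. It stood at 19.7, 33.6, 28.5 and 19.3 CPM in KO and 67.1, 109, 67.8 and 63.0 CPM in WT spermatocytes, a 2.97-fold lower level in KO (log2 -1.57, SE 0.27, adjusted p = 0.000574). Scaled by library totals this call was lost (log2 -0.86, adjusted p = 0.0365). Tex19.1 stood at 48.6, 129, 119 and 53.9 CPM in KO and at 18.2, 53.7, 49.0 and 17.3 CPM in WT. KO replicate 1 lay below WT replicates 2 and 3, and the log2 difference of 1.38 (SE 0.46) missed the threshold (adjusted p = 0.0210). It passed in the fit over all 14 libraries (log2 1.34, adjusted p = 0.00867) and under library totals (log2 2.03, adjusted p = 0.00896). The longest annotated transcripts of the paralogs (1745 and 2046 bases) align over 1106 bases with 83.5% identity. Their longest identical run is 72 bases, and 7.23% of the 30-base stretches of Tex19.1 and 6.15% of those of Tex19.2 occur in the other. Ubr2, the ubiquitin ligase that partners with TEX19.1, rose, at 99.8 to 121 CPM in KO against 13.3 to 52.7 CPM in WT (log2 2.09, adjusted p = 0.00135).

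**Figure D4:**
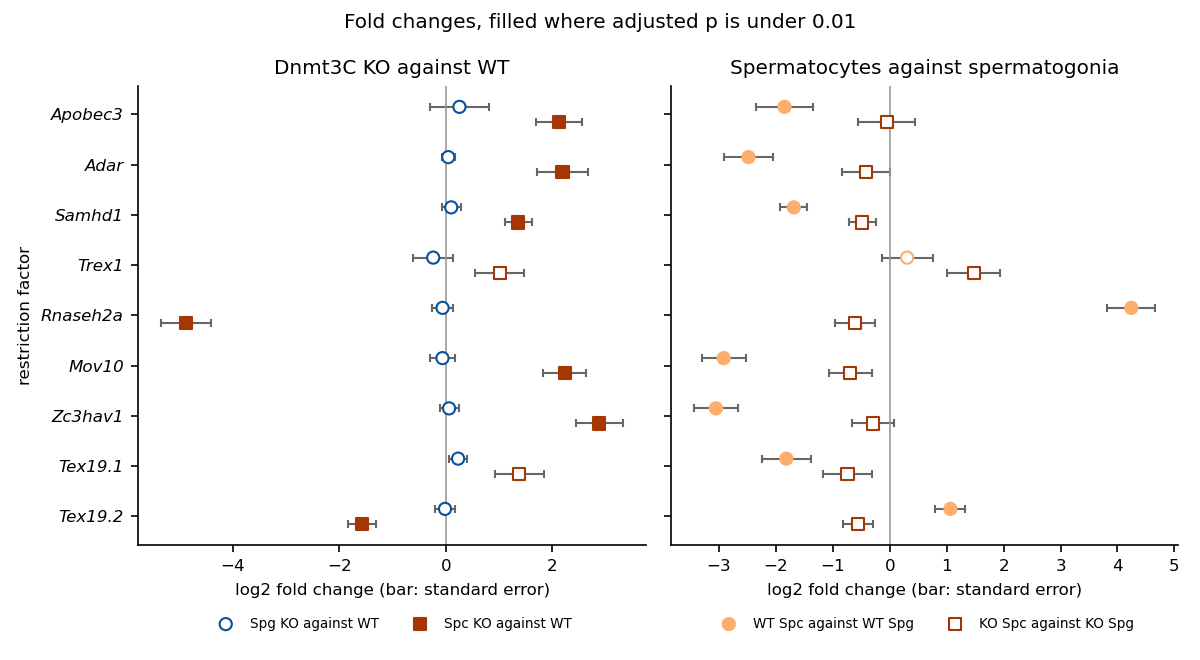
Log2 fold change with standard error (horizontal axis) of the 9 restriction factors (vertical axis). Left, KO against WT in spermatogonia (circles) and spermatocytes (squares). Right, spermatocytes against spermatogonia in WT (circles) and KO (squares). Filled symbols have an adjusted p under 0.01: 0 and 7 of 9 on the left, 8 and 0 of 9 on the right.

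Whether the genotype effect differed between the stages was tested directly as the difference of the log2 fold changes over all 14 libraries, on genes in both tables. The difference passed for Zc3hav1 (2.76, SE 0.53, adjusted p = 0.00150) and Mov10 (2.22, SE 0.54, adjusted p = 0.00543), which were raised more in spermatocytes, and for Rnaseh2a (-4.85, SE 0.53, adjusted p = 0.000153) and Tex19.2 (-1.62, SE 0.37, adjusted p = 0.00373), which were lowered more. These 4 of 9 stand beside 25.7% of 24340 genes tested (11.1% higher and 14.6% lower). For Samhd1 (1.20, adjusted p = 0.0121), Adar (2.07, adjusted p = 0.0140), Apobec3 (1.798, adjusted p = 0.0543), Trex1 (1.17, adjusted p = 0.144) and Tex19.1 (1.08, adjusted p = 0.162) the difference did not pass, so a difference between stages was not shown for them in this fit. With the replicate number as a block, those of Adar (2.37, adjusted p = 0.00641) and Tex19.1 (1.15, adjusted p = 0.00542) passed. That block also pairs spermatocyte libraries by number, and same-numbered KO and WT libraries there had an r of only -0.033 to 0.200.

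The calls of Mov10 and Tex19.2 were lost when single libraries were left out, with values near those of all 14. That of Mov10 was lost without WT spermatocyte replicate 1 (2.05, adjusted p = 0.0109) or 2 (2.16, 0.0113), without KO spermatogonia replicate 2 (2.14, 0.0135) and without WT spermatogonia replicate 1 (2.05, 0.0126), and with spermatocyte replicates 1 and 4 summed (2.10, 0.0113). That of Tex19.2 was lost without KO spermatogonia replicate 1 (-1.55, adjusted p = 0.0101) or 3 (-1.42, 0.0148) and without WT spermatogonia replicate 1 (-1.49, 0.0140) or 3 (-1.46, 0.0140), and under library totals (-0.87, 0.109). Samhd1 was called without KO spermatocyte replicate 3 (1.34, adjusted p = 0.00810), WT spermatocyte replicate 3 (1.36, 0.00238) or WT spermatogonia replicate 2 (1.36, 0.00896), and Adar without WT spermatocyte replicate 3 (2.55, adjusted p = 0.00109). DESeq2 called both (1.19, adjusted p = 0.00103, and 2.09, 0.00207), and both were also called with DESeq2 size factors (adjusted p of 0.00902 and 0.00851), with TMM on genes alone (0.00655 and 0.00921), under library totals (0.00436 and 0.00927) and with no filter on low counts (0.00945 and 0.00969). The calls of Zc3hav1 and Rnaseh2a held without any of the 14 libraries.

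The same libraries were then compared by stage within each genotype. From WT spermatogonia to WT spermatocytes 6 factors were lower: Zc3hav1 (log2 -3.05, SE 0.38), Mov10 (-2.92, SE 0.39), Adar (-2.48, SE 0.43), Apobec3 (-1.85, SE 0.51), Tex19.1 (-1.82, SE 0.43) and Samhd1 (-1.69, SE 0.24). Rnaseh2a was 18.9-fold higher (log2 4.24, SE 0.42, adjusted p = 7.97e-06) and Tex19.2 was 2.09-fold higher (log2 1.06, SE 0.26, adjusted p = 0.00300). Trex1 did not pass (log2 0.30, SE 0.45). These 8 of 9 stand beside 52.5% of genes called (29.2% higher and 23.3% lower), and 7 of 9 factors had groups that did not overlap against 66% of genes. Apobec3 was the called factor whose groups overlapped, and its call was lost without WT spermatocyte replicate 1 (log2 -1.92, adjusted p = 0.0114), 2 (-1.71, 0.0179) or 4 (-1.65, 0.0191) or WT spermatogonia replicate 1 (-1.51, 0.0273), and with spermatocyte replicates 1 and 4 summed (-1.74, 0.0188). That of Tex19.2 was lost without WT spermatogonia replicate 1 (0.86, adjusted p = 0.0293) or 3 (0.84, 0.0319) and under library totals (0.25, adjusted p = 0.488), a scaling that moved the median of all genes from 0.02 to -0.76.

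Between KO spermatogonia and KO spermatocytes 0 of 9 factors passed, where 3.05% of genes did (3.01% higher and 0.037% lower). The log2 differences ran from -0.74 for Tex19.1 (SE 0.43, adjusted p = 0.301) to 1.47 for Trex1 (SE 0.46, adjusted p = 0.0648). An unadjusted p under 0.05 was found for 2 of 9 (Trex1 and Tex19.2) and for 5962 of 24340 genes. DESeq2 called Trex1 alone of the 9 (log2 1.45, adjusted p = 0.00495), beside 2308 of all genes (2084 higher and 224 lower). Mov10, Adar and Trex1 had groups that did not overlap, 3 of 9 against 26.4% of genes. Zc3hav1 had 25.01 ± 9.06 CPM in KO spermatocytes (SD, n = 4), 30.7 ± 3.63 CPM in KO spermatogonia (n = 3) and 3.45 ± 1.76 CPM in WT spermatocytes (n = 4). The comparisons by stage and by genotype share their libraries and are not independent of each other.

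Per exon length the order of the factors in KO spermatocytes was that of spermatogonia, led by Tex19.1 (46.7 ± 22.5 CPM per kb, SD, n = 4), then Mov10 (14.4 ± 3.11), Tex19.2 (12.4 ± 3.41), Rnaseh2a (7.75 ± 2.35) and Adar (7.38 ± 1.03), of which each overlapped with the next after Tex19.1. Apobec3 was again lowest (0.538 ± 0.158 CPM per kb). In WT spermatocytes the order was led by Rnaseh2a (227 ± 116), Tex19.2 (37.4 ± 10.5) and Tex19.1 (18.4 ± 10.4 CPM per kb), whose libraries did not overlap. Mov10 (3.15 ± 2.05), Samhd1 (1.81 ± 0.513), Adar (1.66 ± 1.20), Trex1 (1.58 ± 0.959) and Zc3hav1 (0.530 ± 0.271 CPM per kb) came next with each overlapping its neighbour, and Apobec3 (0.124 ± 0.0544 CPM per kb) was lowest.

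Genes related to the 9 factors were taken from 6 lists of 47 genes. In spermatogonia 0 of the 38 tested passed between KO and WT, beside 0.0436% of all genes. In spermatocytes 33 of 44 did, 23 higher and 10 lower, beside 58.8% of all genes (28% higher and 30.7% lower). In the list on sensing and interferon response 8 of 10 were higher and 0 lower, beside the same 28% and 30.7% of all genes. Irf7, a transcription factor of the interferon response, stood at 6.33, 3.24, 1.09 and 6.23 CPM in KO and 0.123, 0.151, 0.192 and 0.243 CPM in WT (log2 4.57, adjusted p = 0.000183), and Mavs, the mitochondrial adaptor of RNA sensors, rose as well (log2 2.53, adjusted p = 0.000257). Ifit1, an interferon-induced RNA-binding protein, had 15 to 101 counts in KO and at most 1 in WT. In the list on capsid and membrane restriction 5 of 9 were higher and 0 lower, to be read against the same shares, among them Ifitm3 (log2 5.65, adjusted p = 0.000112), Trim30a (4.04, adjusted p = 0.000205) and Bst2, which tethers budding particles (3.38, adjusted p = 0.000564). Ifitm3 stood at 75.0, 34.3, 6.23 and 60.4 CPM in KO. The KO library lowest for Ifitm3, Irf7 and Ifit1 was replicate 3, which had the lowest peritubular and macrophage marker levels (348 and 26.7 CPM). Over the KO libraries Ifitm3 and Irf7 had the order of the peritubular markers. Their order differed from that of the macrophage markers (71.3, 145, 26.7 and 67.4 CPM in replicates 1 to 4), and the part of these cells was not tested.

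The other lists were mixed, and their counts stand beside the 28% higher and 30.7% lower of all genes in this comparison. Of 6 deaminase relatives tested, 2 were higher (Apobec1, log2 3.798, and the RNA editor Adarb1, 1.53) and 4 lower, among them the testis genes Adad1 (-2.01) and Adad2 (-2.95) and Apobec4, with 66 to 663 counts in WT and 0 in each KO library. Of 7 nuclease partners and relatives, 4 were higher, with Samd9l (4.45), Rnaseh2b and Dnase2a (2.94) foremost, and 2 lower (Rnaseh2c and Isg20, -1.97, the last with overlapping libraries). Of 8 RNA-binding partners and relatives, Trim25, the cofactor of the zinc finger antiviral protein (3.04), and the Zc3hav1 relative Zc3hav1l (3.10) were higher and Pabpc1 (-2.34), Upf1 (-1.03) and Dhx9 (-0.66) lower. Mov10l1, the germline relative of Mov10 that binds piRNA precursors, stood at 285 to 388 CPM in KO and 241 to 457 CPM in WT (log2 0.07, adjusted p = 0.799). Of the 4 ubiquitin partners of TEX19, Ube2a (3.16) and Ubr2 were higher and Ube2b (-0.98) was lower. The difference between stages passed for 16 of 43 related genes, 11 higher and 5 lower, beside 25.7% of all genes. From WT spermatogonia to WT spermatocytes 11 of 43 were higher and 14 lower, beside 29.2% and 23.3% of all genes. From KO spermatogonia to KO spermatocytes 3 were higher and 1 lower, beside 3.01% and 0.037% of all genes.

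**Figure D5:**
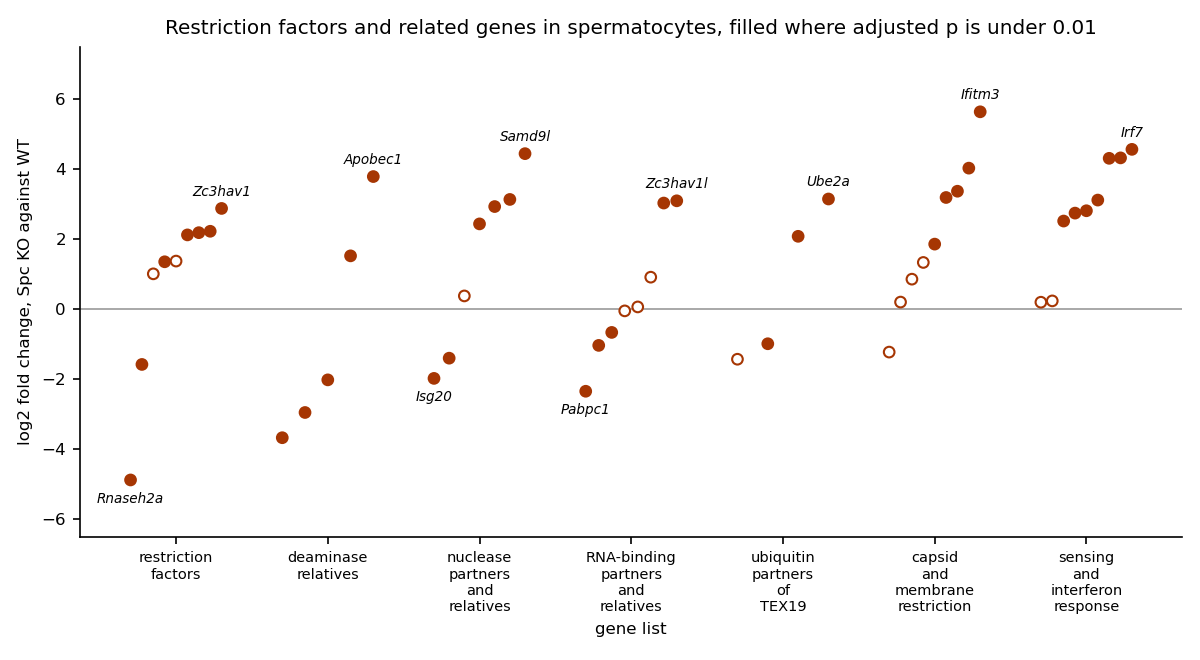
Log2 fold change of KO against WT in spermatocytes (vertical axis) for the 9 restriction factors and the related genes of 6 lists (horizontal axis), a point per gene, filled where the adjusted p was under 0.01. Apobec4 and Ifit1, at 3 counts or fewer in each library of a group, are left out. In the list on sensing and interferon response the called genes are all above 0, with Irf7 at 4.57, and among the factors Rnaseh2a is lowest at -4.87.

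Over the 14 libraries, log2 CPM of Samhd1 and Mov10 ran together most closely among the 9 factors (Pearson r = 0.974), and Zc3hav1 and Rnaseh2a went most strongly in opposite directions (r = -0.962). Tex19.1 and Tex19.2 had an r of -0.406, and Trex1 had an r between -0.393 and 0.333 with each of the other 8. Among 14695 genes with a mean count of at least 100, those with the pattern most like that of a factor were Csnk2b (r = 0.999) and Egln2 (0.998) for Rnaseh2a, Atg16l1 (0.998) for Adar, and Map3k5 and Erbb2 (both 0.997) for Mov10. For Zc3hav1 they were Denn2b and Glg1 (both 0.996), for Tex19.1 Prmt1 (0.994) and Iah1 (0.993), and for Samhd1 Retreg3 (0.990) and Bcl10 (0.989). For Tex19.2 Stmn1 was named (0.985), for Apobec3 Pfkl (0.979) and Fxyd6 (0.977), and for Trex1 Pnp (0.957) and Eny2 (0.946). All of these points share the same 14 libraries in 4 groups, so the values describe the pattern over groups.

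Single copies of transposable elements in or within 5 kb of the 9 genes were looked at in the same cells. Counted over both stages, none of the copies with a mean of at least 0.5 TPM in KO or WT belonged to the subfamilies L1Md_T, L1Md_A, L1Md_Gf or IAP. An L1Md_F2 copy in an intron of Adar on its own strand stood at 4.63 TPM in KO (range 2.01 to 8.12) and 0.871 TPM in WT spermatocytes (0 to 1.85), and at 5.51 TPM in KO (3.81 to 8.76) and 11.1 TPM in WT spermatogonia (10.5 to 11.4). The unspliced RNA of Adar holds the same bases.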

How the data were processed

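Poly(A) RNA of sorted germ cells was sequenced with a stranded kit. Per the submitters' processing notes and the methods of the study, reads were trimmed with cutadapt 4.0 and aligned with STAR 2.7.3a to GRCm38 with up to 100 alignments per read, and the authors counted genes (GENCODE M25) and TE subfamilies with TEtranscripts 2.2.3 and single TE copies with TElocal 1.1.1, on the strand of the library. The deposited counts are raw read counts, with 1 table per stage and 40555726 to 53323651 counts per library. The deposited TPM values of TE copies were scaled by the authors to sum to 1000000 over TE copies alone. The authors' own comparisons in the deposited tables (log2 fold changes and p-values, made with DESeq2 1.44.0) were not used. In the spermatogonia table the columns numbered 4 belong to the libraries titled replicate 3, and a further spermatogonia replicate of each genotype was excluded by the authors for poor RNA quality. Reads that map to several places are shared among features in such counting, which matters for paralogs and overlapping genes.

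From the counts, genes and TE subfamilies were filtered with filterByExpr, scaled by TMM and tested with edgeR 4.0.16 (quasi-likelihood, two-sided, Benjamini-Hochberg over all features, with an adjusted p under 0.01 as the threshold), separately by stage for KO against WT and all 14 libraries together for stage contrasts and for the difference of the KO effect. All 9 factors passed the filter in every fit. Levels are CPM with joint TMM factors, divided by the union of exon lengths (GENCODE M21 on GRCm38) where genes are compared. Depth was thus similar across libraries, and counts under about 100 per library carry more counting error. This concerns Trex1, Apobec3 in WT spermatocytes, and Zc3hav1 in part of the WT spermatocyte libraries (67 to 249 counts). The factors and the lists were chosen with earlier results of these data known. Named genes were all 9 factors, up to 3 called genes of smallest p per direction from each list, Ubr2, Rnaseh2b, Rnaseh2c and Mov10l1, and the 2 genes with the highest Pearson r for each factor, of which some are not reported here. Same-numbered KO and WT libraries of spermatogonia deviated together with r of 0.758, 0.188 and 0.300. KO replicate 2 correlated best with WT replicate 3, and WT replicate 3 with KO replicate 2, so the numbers were an uncertain pairing. The main fits did not use them, and the replicate block was an alternative only. The fits were tested on simulated data. Alternatives were DESeq2 1.42.0, other scalings, no filter, a threshold of 0.05, a replicate block, summed replicates 1 and 4 of spermatocytes, and each library left out. R 4.3.3, Python 3.11.15, NumPy 2.4.6, pandas 2.3.3 and matplotlib 3.10.9 were used.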

Additional observations from a re-analysis of the deposited data

Results flagged for a closer look

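In a test for single libraries that stand apart, run on the 18 groups of 4 spermatocyte libraries (9 factors, KO and WT), 1 exceeded Dixon's limit: Tex19.2 in WT replicate 2, with 90.6 CPM on the scaling within spermatocytes. Chance flags about 1 in 20 groups. Groups of 3 spermatogonia libraries were not tested.

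For 4 factors the genotype effect differed between the stages by the interaction test (edgeR, adjusted p under 0.01), with differences of log2 fold change of 2.22 for Mov10, 2.76 for Zc3hav1, -1.62 for Tex19.2 and -4.85 for Rnaseh2a. Stage goes together with age and sorting, and with the marker lists given above, whose part in these differences was not tested.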

How the results depend on the processing

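Over the log2 values of the 9 factors in the 5 comparisons and all alternatives, 678 values kept direction and side of the threshold, 22 lost the call, 23 gained it and 24 changed sign. The number of factors called was 0 between genotypes in spermatogonia under every alternative. In spermatocytes it was 5 to 8, beside 8758 to 17042 of all genes, and between WT stages 7 to 8 (6 to 8 with a library left out). For the difference between stages it was 3 to 6, and with a library left out it was lowest at 2, when WT spermatogonia replicate 1 was dropped, and highest at 6, when WT spermatocyte replicate 3 was dropped. Between KO stages DESeq2 called 1 factor, beside 2308 of all genes.

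Changes of sign were found only for values that did not pass the test. Tex19.2 between genotypes in spermatogonia was 0.0249 in the fit over all 14 libraries and 0.0098 under library totals, Trex1 between WT stages was -0.42 under library totals, and Apobec3 between KO stages was 0.0855 with the replicate block. With a library left out, log2 values in spermatogonia ranged from -0.21 to 0.73 for Apobec3, -0.12 to 0.15 for Tex19.2, -0.18 to 0.19 for Mov10, -0.0021 to 0.097 for Adar, -0.037 to 0.17 for Zc3hav1, -0.19 to 0.15 for Rnaseh2a, -0.012 to 0.26 for Samhd1 and -0.41 to 0.16 for Trex1. Between WT stages Trex1 ranged from -0.092 to 0.56, and between KO stages Apobec3 from -0.34 to 0.39. The cause was not tested.

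Counts of all genes called moved more. In spermatogonia 9 genes (8 higher, 1 lower) became 591 with DESeq2 (144 higher, 447 lower), 215 in the fit over all 14 libraries (72 higher, 143 lower), 144 with no filter (60 higher, 84 lower), 108 with the replicate block (27 higher, 81 lower), 56 at a threshold of 0.05 and 0 to 18 with a library left out. In spermatocytes 12885 became 17042 with DESeq2, 15916 at 0.05, 11439 with the block, 8758 with replicates summed and 10738 to 14117 with a library left out. Between WT stages 12777 became 14620 with DESeq2, 15855 at 0.05, 11727 with the block, 10914 with replicates summed and 10658 to 13358 with a library left out. Between KO stages 742 became 2308 with DESeq2, 2043 at 0.05, 375 with the block, 346 with replicates summed and 112 to 1005 with a library left out. For the difference 6251 became 9807 with DESeq2, 3521 with replicates summed, 11191 at 0.05 and 3793 to 8993 with a library left out. Library totals moved the split of higher to lower from 2690 and 3561 to 4252 and 1733 for the difference and from 7103 and 5674 to 4541 and 8724 between WT stages.

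Spermatocyte numbers did not pair the libraries (r of 0.062, 0.200, -0.033 and 0.116), and not every library correlated best with its own number. With the replicate block 8 factors were called in spermatocytes (Tex19.1 with 1.42, adjusted p = 0.00108), beside 11439 of all genes. For the difference 6 were called, beside 5977 genes. Between WT stages 7 were called (Apobec3 lost with -1.63, adjusted p = 0.0138), beside 11727 genes, and between KO stages 0, beside 375. In spermatogonia the block changed no call of a factor. Depth limits Trex1 and Apobec3 most.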
